A study of Mus musculus with 18 samples.

Results

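The genes described here are 36 mouse genes for lysosomal glycosidases, sulfatases, lipases and the proteins that help them, measured in bone marrow-derived macrophages (BMDMs) with and without Prep. They were chosen by symbol, not by a rule on their values. The list, made with earlier results of these data known, holds lysosomal hydrolases, their activator proteins and the factor that activates sulfatases. All 36 were among the 16314 gene symbols of the count table, and all 36 passed the filter on low counts that left 12021 genes for testing. The study asked how loss of PREP, prolyl endopeptidase, a serine peptidase that cuts short peptides after proline, alters macrophages at rest and after activation.

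Lysosomes are acidic compartments in which macromolecules taken up from outside the cell, or delivered by autophagy, are broken down. Glycosidases take sugars off glycolipids, glycoproteins and glycosaminoglycans one after another from the end of the chain, sulfatases remove sulfate groups from the same substrates, and lipases split stored fats and membrane lipids. A chain is degraded only as far as the first enzyme that is missing, so that inherited loss of a single one causes a storage disease, in which macrophages are often filled with undigested substrate. Many of these genes carry the sequence CACGTG near their start sites, which the transcription factor TFEB and its relatives bind.

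BMDMs came from the femora of Prep-/- mice and of their Prep+/- littermates on a C57BL6/J background. The knockout was carried by the whole animal, and the controls also lacked 1 allele of Prep, so that the comparison is with heterozygous and not with wild-type cells. Bone marrow cells were grown for 7 days with 50 ng/ml M-CSF, the growth factor that turns precursors into macrophages. M0 cells were then left unstimulated, M1 cells were exposed to LPS at 50 ng/ml and M2 cells to IL-4 with IL-13, at 20 ng/ml each, in both cases over 24 h. Each genotype in each state had 3 biological replicates, which gave 18 libraries in 6 groups. The age and sex of the mice used for these cultures were not given in the sources used here.

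The libraries held 19068237 to 22598279 counts. Prep itself measured 26.0 to 42.5 CPM (counts scaled to a common library size by TMM, a normalisation for library composition) in the Prep+/- libraries and 1.48 to 3.22 CPM in the Prep-/- libraries. Prep-/- M0 replicate 3 and Prep-/- M2 replicate 3 stood apart from the other 2 libraries of their groups, with a chi-square per degree of freedom over all genes of 112 and 119.7 for the M0 pairs and of 111 for both M2 pairs, against 9.87 to 49.1 for the other pairs. Summed macrophage markers (8 genes) measured 30377 to 48169 CPM in Prep-/- M0 and 18997 to 22403 CPM in Prep+/- M0, and summed granulocyte markers (9 genes) measured 67.8 to 155 CPM against 31.9 to 43.8 CPM in the same groups. In M1 the order of both sums was the reverse, with 45750 to 47201 CPM in Prep+/- and 30995 to 37037 CPM in Prep-/- for the macrophage markers, and 79.1 to 145 CPM and 51.4 to 71.4 CPM for the granulocyte markers. In M2 the macrophage markers summed to 10025 to 12200 CPM in Prep+/- and 13886 to 19562 CPM in Prep-/- libraries, and the granulocyte markers to 25.01 to 30.6 CPM and 30.9 to 47.02 CPM. B cell markers summed to 3.01 to 4.78 CPM in Prep+/- M0 and 8.66 to 11.5 CPM in Prep-/- M0, and to 2.06 to 2.59 CPM and 5.09 to 6.96 CPM in the M1 groups. Of the 5 B cell markers, 3 were in the count table. In Prep-/- M0, Cd79a and Ms4a1 were at 0 in all 3 libraries, so only the remaining marker made up that sum. In Prep+/- M0 no marker was at 0 in all 3 libraries, and Ms4a1 was at 0 in both M1 groups. Dendritic cell markers summed to at most 2.64 CPM and stromal markers to at most 20.7 CPM in any library. The T cell, mast cell and erythroid markers held by the table each summed to at most 0.377 CPM. The part of these marker differences in the results was not tested, and in bulk RNA fewer cells of a type and less RNA per cell cannot be told apart.

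RefSeq promoter windows (250 bases before to 50 bases after the start site, assembly GRCm38.p6, which is older than the GRCm39 build used for the counts) were at hand for 31 of the 36 genes. CACGTG, which reads the same on both strands, was present in 8 of these 31 (25.8%), against 8.09% of all genes in the promoter table. The 8 were Arsa, Gaa, Gla, Glb1, Naglu, Plbd1, Sgsh and Sumf1. The longer form TCACGTGA, which contains the shorter one, was in Gla and Sumf1 (6.45% against 1.12% of all genes), and GAGGAA, the core of sites of the macrophage factor PU.1, searched on both strands, was in 13 of 31 (41.9% against 31.3%). In the last 150 bases of the window CACGTG was in 6 of 31 (19.4% against 5.0%), while GAGGAA was in 5 of 31, or 16.1% against 17.8%, so that its order turned. Below are 4 windows with the motif, from genes that were higher in Prep-/- BMDMs in at least 1 state, and the window at the first start site of Psap, the most strongly expressed gene of the set, which has no match. They were picked with the values known. Capitals mark CACGTG, and positions are counted from the start site, whose first base is +1. The matches begin at -73 in Naglu, at -227 and -194 in Gla, at -16 in Arsa and at -140 in Gaa.
Naglu (chr11:101069844-101070143, plus strand): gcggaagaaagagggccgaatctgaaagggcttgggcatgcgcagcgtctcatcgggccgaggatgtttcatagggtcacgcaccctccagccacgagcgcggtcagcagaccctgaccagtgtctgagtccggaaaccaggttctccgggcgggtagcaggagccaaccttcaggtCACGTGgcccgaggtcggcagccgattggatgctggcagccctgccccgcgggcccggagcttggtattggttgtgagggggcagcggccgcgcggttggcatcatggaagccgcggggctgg
Gla (chrX:134600956-134601255, minus strand): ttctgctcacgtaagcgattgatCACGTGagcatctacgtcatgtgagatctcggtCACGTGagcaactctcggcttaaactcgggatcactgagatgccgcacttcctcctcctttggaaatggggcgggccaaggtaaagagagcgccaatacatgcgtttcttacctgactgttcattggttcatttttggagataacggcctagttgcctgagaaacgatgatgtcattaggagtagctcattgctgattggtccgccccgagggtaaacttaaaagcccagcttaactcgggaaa
Arsa (chr15:89477375-89477674, minus strand): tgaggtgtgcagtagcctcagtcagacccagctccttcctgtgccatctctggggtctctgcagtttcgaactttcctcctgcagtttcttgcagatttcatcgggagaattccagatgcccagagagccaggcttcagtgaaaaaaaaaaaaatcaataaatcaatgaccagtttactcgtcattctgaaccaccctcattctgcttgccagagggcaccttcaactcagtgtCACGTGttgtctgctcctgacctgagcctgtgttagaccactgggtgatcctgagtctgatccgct
Gaa (chr11:119267713-119268012, plus strand): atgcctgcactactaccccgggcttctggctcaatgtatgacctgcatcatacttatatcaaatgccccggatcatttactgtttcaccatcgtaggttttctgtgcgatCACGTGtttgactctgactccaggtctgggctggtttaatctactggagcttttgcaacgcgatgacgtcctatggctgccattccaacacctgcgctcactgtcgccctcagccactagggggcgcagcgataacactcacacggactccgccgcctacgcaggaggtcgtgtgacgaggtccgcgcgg
Psap (chr10:60277378-60277677, plus strand): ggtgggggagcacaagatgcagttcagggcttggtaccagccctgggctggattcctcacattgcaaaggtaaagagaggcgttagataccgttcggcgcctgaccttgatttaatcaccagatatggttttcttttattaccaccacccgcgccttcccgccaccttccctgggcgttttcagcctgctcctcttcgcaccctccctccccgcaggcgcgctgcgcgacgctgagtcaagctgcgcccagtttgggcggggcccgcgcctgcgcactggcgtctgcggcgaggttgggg

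Per kilobase of annotated exon, Psap was the highest of the 36 genes at 4393 CPM/kb averaged over all libraries, followed by Hexa at 216 CPM/kb and Gusb at 127 CPM/kb. Psap encodes prosaposin, the precursor of 4 small proteins that present sphingolipids to their hydrolases, Hexa the alpha subunit of beta-hexosaminidase, and Gusb beta-glucuronidase. Summed over the 36 genes, the level was 11658 ± 613 CPM in Prep+/- M0, 11741 ± 346 CPM in Prep+/- M1 and 19277 ± 830 CPM in Prep+/- M2 (mean ± SD, n = 3, as for all such values). The sums in Prep-/- BMDMs were 23918 ± 2384, 20150.4 ± 2656 and 41903 ± 4741 CPM. The lowest Prep-/- library lay above the highest Prep+/- library in every state. Psap alone made up 43.7% to 63.8% of the sum in Prep+/- libraries and 60.9% to 79.3% in Prep-/- libraries. Without Psap the sums were 6337 ± 107, 6104 ± 129 and 7190 ± 390 CPM in Prep+/- and 8362 ± 354, 7166 ± 215 and 9309 ± 349 CPM in Prep-/- BMDMs, and again the genotypes did not overlap in any state. The order of Prep+/- M0 and M1 depended on the scaling: by CPM of the deposited totals the sums were 13650.1 ± 551 and 9979 ± 677 CPM. These sums are a description, with no test.

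Prep-/- BMDMs were set against Prep+/- BMDMs of the same state. A gene was called higher or lower when the adjusted p of edgeR's quasi-likelihood test was under 0.05 and the fold change over 1.5. In M0, 11 of the 36 genes (30.6%) were higher in Prep-/- than in Prep+/- BMDMs, against 15.4% of all genes tested, and 3 (8.33%) were lower, against 17.2%. In M1, 6 (16.7%) were higher, against 12.3%, and 2 (5.56%) were lower, against 10.2%. In M2, 8 (22.2%) were higher, against 6.37%, and 1 (2.78%) was lower, against 9.82%. Without the library that stood apart, the counts were 12 higher and 4 lower in M0 and 9 higher and 1 lower in M2. The shares of all genes called without that library are not given, so these counts cannot be set against them. For M0, M1 and M2 the 36 genes had median log2 fold changes of 0.20, 0.20 and 0.31, where all genes tested had 0.02, 0.04 and 0.03. Counting every gene by its sign alone, 26, 24 and 31 of the 36 were on the higher side in M0, M1 and M2, where 51.3%, 52.5% and 53% of all genes tested were.

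**Figure D1:**
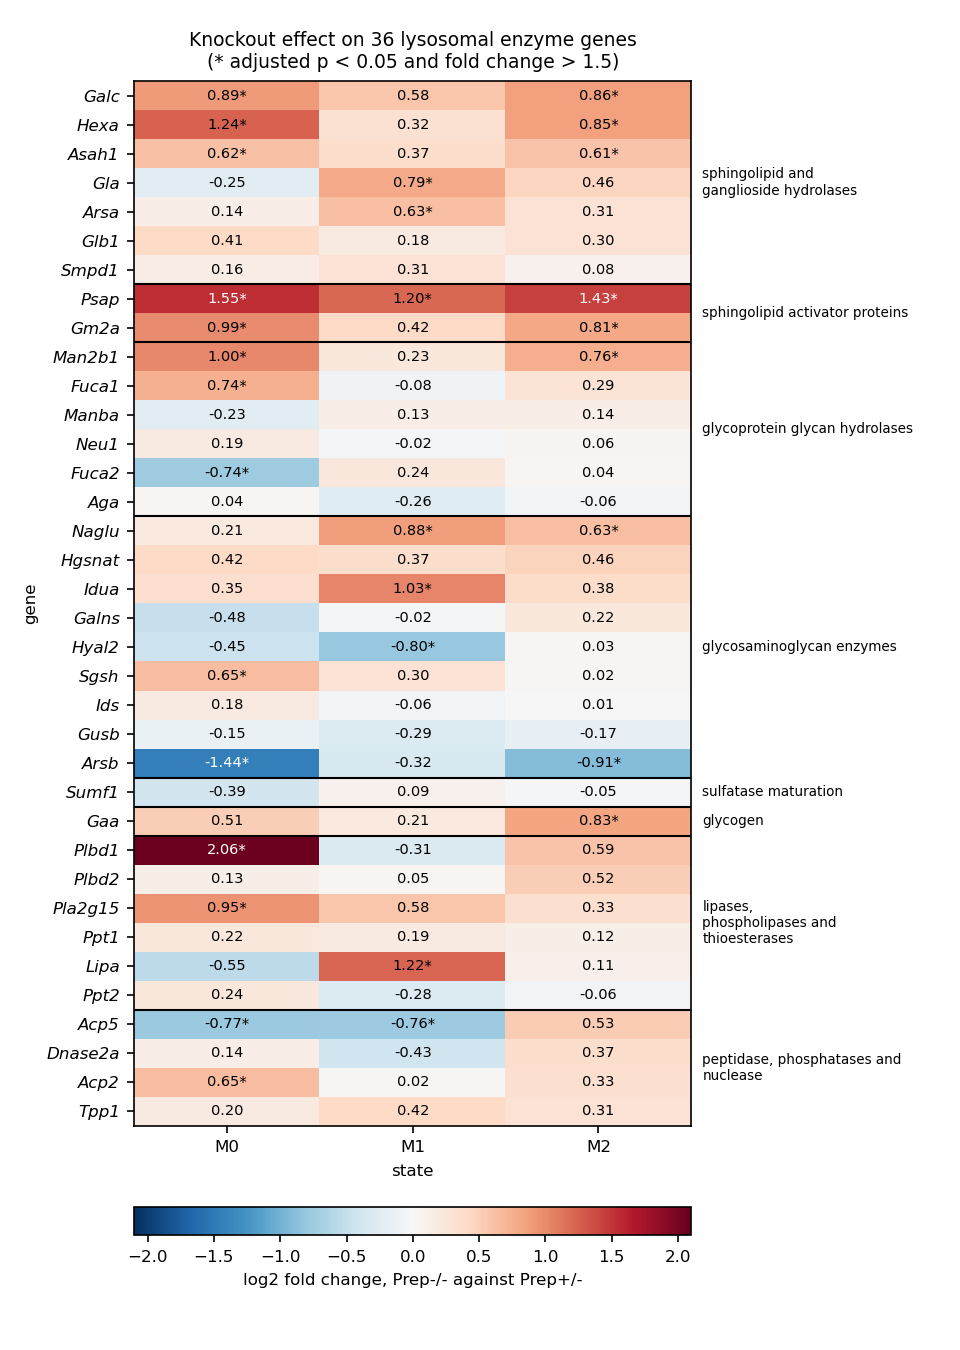
Log2 fold change of each of the 36 genes (rows, grouped by role) in Prep-/- against Prep+/- BMDMs in the M0, M1 and M2 states (columns), red for higher and blue for lower in Prep-/-; an asterisk marks the genes that met both call criteria. Psap is marked in all 3 columns, and most marked cells are red, with Arsb, Acp5, Fuca2 and Hyal2 as the genes marked in blue.

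Of the 36 genes, 21 were called in at least 1 state and 15 in none. The share of all genes tested that was called in at least 1 state is not given, so these counts cannot be set against it. Psap was higher in all 3 states. Galc, Hexa, Gm2a, Man2b1, Asah1 and Naglu were each higher in 2 states, and 10 genes were higher in 1 state. Arsb and Acp5 were lower in 2 states, Fuca2 and Hyal2 in 1. No gene was called higher in one state and lower in another. Of the 8 genes with CACGTG in the promoter window, 2, 3 and 2 were higher in M0, M1 and M2 and 0 lower, with medians of 0.31, 0.26 and 0.38 on the log2 scale. Of the 23 with a window and no match, 8, 3 and 5 were higher and 3, 2 and 1 lower, with medians of 0.20, 0.19 and 0.29. The shares of all genes called with and without CACGTG are not given. A difference between these groups of genes was not tested.

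The sphingolipid activator proteins were the group with the largest median difference between genotypes in each state among the groups with more than 1 gene. Both members, Psap and Gm2a, were higher in M0 and M2, and Psap also in M1. In replicates 1, 2 and 3, the order used throughout, Psap (GRCm39, chr10:60113431-60138380) measured 5966, 5019 and 4977 CPM in Prep+/- M0 and 17029.7, 12935 and 16704 CPM in Prep-/- M0. Every Prep-/- library was more than 2 times as high as every Prep+/- library. In M1 it measured 5886, 5534 and 5492 CPM in Prep+/- and 15786, 11287 and 11879.5 CPM in Prep-/-, and in M2 11595, 12608 and 12059 CPM in Prep+/- and 37289.6, 31958 and 28532 CPM in Prep-/-. The genotypes did not overlap in any state, and Prep-/- M2 held the highest levels of all groups. The log2 fold changes were 1.55 ± 0.16 (adjusted p = 2.19e-06) in M0, 1.20 ± 0.16 (adjusted p = 9.03e-05) in M1 and 1.43 ± 0.16 (adjusted p = 1.74e-05) in M2. Gm2a encodes the activator that lifts GM2 ganglioside out of the membrane for beta-hexosaminidase. Its means were 201 ± 9.52 CPM in Prep+/- M0 and 397 ± 48.3 CPM in Prep-/- M0, with a log2 fold change of 0.99 ± 0.10 (adjusted p = 1.61e-06), and 236 ± 0.892 and 414 ± 28.6 CPM in M2, with 0.81 ± 0.10 (adjusted p = 3.13e-05). In M1 the difference of 0.42 ± 0.10 had an adjusted p of 0.00376 but a fold change under 1.5.

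Among the 7 sphingolipid and ganglioside hydrolases, 3 were higher in M0 (Hexa, Galc, Asah1), 2 in M1 (Gla, Arsa) and 3 in M2 (Hexa, Galc, Asah1), and none was lower in any state. Hexa (chr9:59446818-59474021), whose product splits GM2 ganglioside together with Gm2a, measured 940.0, 821 and 767 CPM in Prep+/- M0 and 1936, 1721 and 2294 CPM in Prep-/- M0. In M2 the values were 1003, 999.6 and 863 CPM in Prep+/- and 2003, 1734 and 1445 CPM in Prep-/-. All Prep-/- libraries lay above all Prep+/- libraries in both states, with log2 fold changes of 1.24 ± 0.14 (adjusted p = 3.88e-06) and 0.85 ± 0.13 (adjusted p = 2.48e-04). In M1 the values were 667, 745 and 712 CPM in Prep+/- and 911, 865 and 883 CPM in Prep-/-, which did not overlap, and the log2 fold change was 0.32 ± 0.13 (adjusted p = 0.0665). Hexa shares part of its locus with Tmem202 on the opposite strand, which averaged 4.29 CPM.

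Galc encodes the enzyme that removes galactose from galactosylceramide, a main lipid of myelin. It measured 92.7, 84.6 and 90.8 CPM in Prep+/- M0 and 173, 172 and 151 CPM in Prep-/- M0, and 86.7, 98.3 and 79.5 CPM in Prep+/- and 174, 165 and 140.4 CPM in Prep-/- in the M2 groups. The groups were apart in both states, with log2 fold changes of 0.89 ± 0.12 (adjusted p = 2.31e-05) and 0.86 ± 0.12 (adjusted p = 9.92e-05). In M1 Galc was low in both genotypes, with 44.9, 36.9 and 34.7 CPM in Prep+/- and 54.1, 64.1 and 55.7 CPM in Prep-/-. The M1 difference of 0.58 ± 0.12 (adjusted p = 0.00208) stood just under the fold criterion and passed it without Prep-/- M1 replicate 1 (0.61), Prep-/- M1 replicate 3 (0.60) or Prep+/- M1 replicate 1 (0.68).

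Gla (chrX:133488891-133501904), the alpha-galactosidase that clears globotriaosylceramide, had another profile. It measured 158, 152 and 151 CPM in Prep+/- M0 and 125, 135 and 128 CPM in Prep-/- M0, 158, 159 and 152 CPM in Prep+/- and 330.3, 225 and 259 CPM in Prep-/- in M1, and 211, 203 and 197 CPM in Prep+/- and 299, 262 and 278 CPM in Prep-/- in M2. The Prep-/- libraries were the lower ones in M0 and the higher ones in M1 and M2, without overlap in any state. The log2 fold change passed the criteria in M1 alone (0.79 ± 0.11, adjusted p = 1.53e-04), with -0.25 ± 0.11 (adjusted p = 0.0806) in M0 and 0.46 ± 0.11 (adjusted p = 0.00685) in M2. Gla overlaps Rpl36a and Hnrnph2 on the opposite strand. Rpl36a averaged 252 CPM and had a log2 fold change of -0.51 in M1 (adjusted p = 0.106), and Hnrnph2 averaged 122 CPM with 0.28 (adjusted p = 0.0395).

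Asah1, acid ceramidase, was higher in M0 (0.62 ± 0.14, adjusted p = 0.00200) and M2 (0.61 ± 0.14, adjusted p = 0.00543). Its M0 call was lost for a fold change under 1.5 without Prep-/- M0 replicate 1 (0.55), Prep-/- M0 replicate 2 (0.48), Prep+/- M0 replicate 1 (0.57) or Prep+/- M0 replicate 2 (0.58), and its M2 call without Prep+/- M2 replicate 1 (0.58). Arsa, arylsulfatase A, which desulfates sulfatide, was higher in M1 only, with 38.9, 34.5 and 34.7 CPM in Prep+/- and 55.6, 53.7 and 57.8 CPM in Prep-/- libraries (0.63 ± 0.13, adjusted p = 0.00227). Its knockout effect in M1 was not shown to differ from that in M0 (difference 0.49 ± 0.19, adjusted p = 0.0659). Glb1, beta-galactosidase, had log2 fold changes of 0.41, 0.18 and 0.30 in M0, M1 and M2, and Smpd1, acid sphingomyelinase, of 0.16, 0.31 and 0.08, none of which passed the fold criterion. Glb1 overlaps Tmppe on the same strand, which averaged 28.3 CPM and had -0.58 in M1 (adjusted p = 0.00285).

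**Figure D2:**
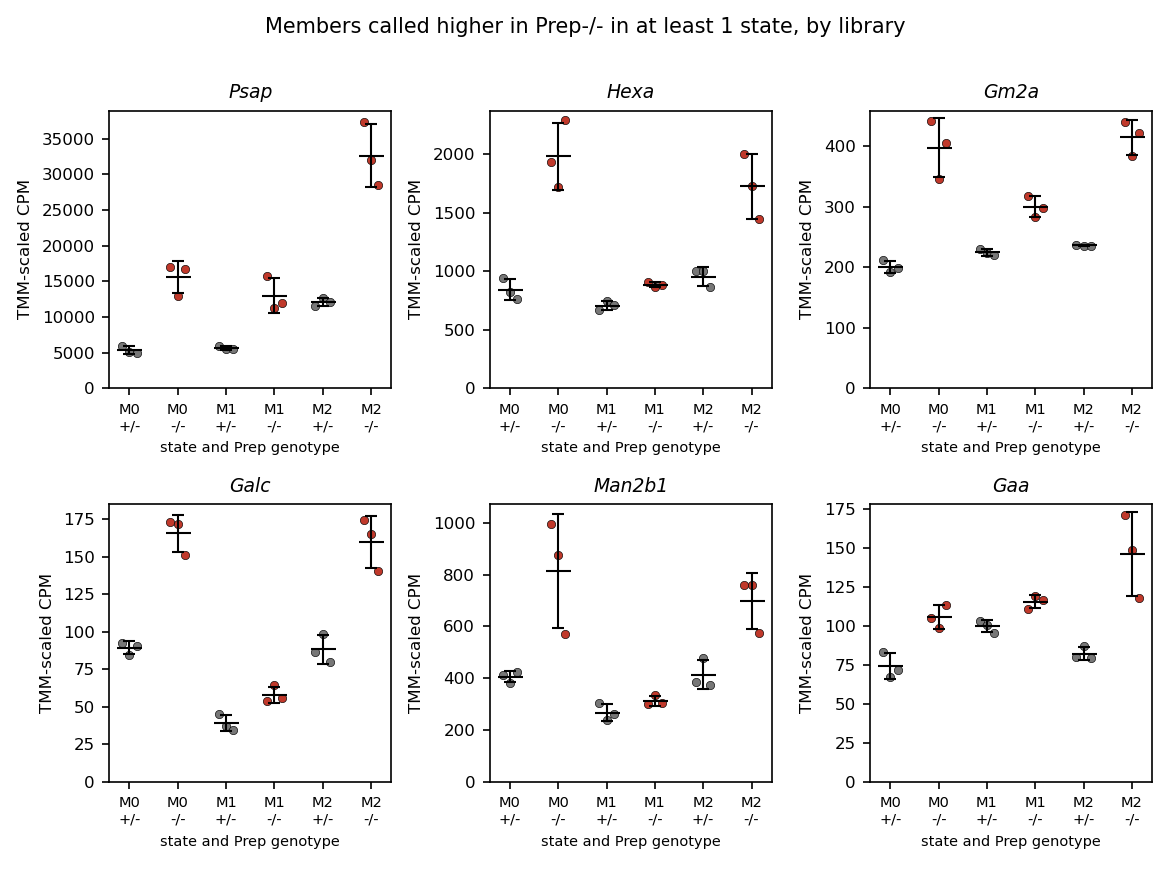
TMM-scaled CPM of Psap, Hexa, Gm2a, Galc, Man2b1 and Gaa in each library (points, grey for Prep+/- and red for Prep-/-), with the mean and SD (bars, n = 3) for each state; every axis starts at 0. The red points lie above the grey ones for all 6 genes in M0 and M2, and in M1 the gap is widest for Psap.

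Of the 6 enzymes that take glycans off glycoproteins, Man2b1 and Fuca1 were higher and Fuca2 was lower in M0, Man2b1 was higher in M2, and none was called in M1. Man2b1, lysosomal alpha-mannosidase, measured 411, 383 and 425 CPM in Prep+/- M0 and 994, 877 and 569 CPM in Prep-/- M0 (1.002 ± 0.17, adjusted p = 2.18e-04), where replicate 3, the library that stood apart, was the lowest of its group. In M2 the values were 386, 479 and 375 CPM in Prep+/- and 762, 759 and 575 CPM in Prep-/- (0.76 ± 0.17, adjusted p = 0.00455), and again replicate 3 was the lowest Prep-/- library.

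Fuca1 and Fuca2 both encode alpha-fucosidases, the first lysosomal and the second a paralogue found in plasma, and they moved in opposite directions in M0. Fuca1 measured 209.7, 197 and 187 CPM in Prep+/- and 374, 296 and 322 CPM in Prep-/- M0 libraries (0.74 ± 0.10, adjusted p = 2.22e-05). Fuca2 measured 175, 172 and 165 CPM in Prep+/- and 85.03, 112 and 109.9 CPM in Prep-/- M0 libraries (-0.74 ± 0.13, adjusted p = 2.17e-04). Neither pair of groups overlapped. In M1 Fuca1 had 172, 199 and 186 CPM in Prep+/- and 185, 170.1 and 174 CPM in Prep-/-, and Fuca2 139.6, 135 and 132 CPM in Prep+/- and 160.1, 162 and 159 CPM in Prep-/-, with log2 fold changes of -0.08 ± 0.10 and 0.24 ± 0.13 that did not pass. In M2 Fuca1 had 203, 189 and 183 CPM in Prep+/- and 236, 222 and 246 CPM in Prep-/- (0.29 ± 0.10, adjusted p = 0.0415), and Fuca2 140.0, 146 and 133 CPM in Prep+/- and 157, 163 and 111 CPM in Prep-/- (0.04 ± 0.13, adjusted p = 0.861). Manba (beta-mannosidase), Neu1 (sialidase) and Aga (aspartylglucosaminidase) had log2 fold changes between -0.26 and 0.19 over the 3 states and were called in none.

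The 9 enzymes of glycosaminoglycan degradation did not move one way. In M0 Sgsh was higher and Arsb lower, in M1 Naglu and Idua were higher and Hyal2 lower, and in M2 Naglu was higher and Arsb lower. The median log2 fold change of the group was 0.18, -0.02 and 0.03 in M0, M1 and M2. Arsb (chr13:93907903-94079528), arylsulfatase B, which desulfates dermatan and chondroitin sulfate, measured 78.7, 79.7 and 109 CPM in Prep+/- M0 and 19.5, 38.9 and 40.004 CPM in Prep-/- M0. In M2 the values were 45.7, 50.1 and 47.6 CPM in Prep+/- and 20.98, 29.1 and 26.03 CPM in Prep-/-. The Prep-/- libraries were below all Prep+/- libraries in both states, and the log2 fold changes were -1.44 ± 0.22 (adjusted p = 6.40e-05) and -0.91 ± 0.22 (adjusted p = 0.00580). In M1, with 35.6, 32.4 and 32.7 CPM in Prep+/- and 21.8, 27.6 and 31.5 CPM in Prep-/-, the groups also did not overlap, and the difference of -0.32 ± 0.22 had an adjusted p of 0.267.

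Naglu and Idua act in heparan sulfate degradation, Naglu as alpha-N-acetylglucosaminidase and Idua as alpha-L-iduronidase. Naglu measured 69.8, 59.6 and 59.8 CPM in Prep+/- M1 and 132, 107 and 109 CPM in Prep-/- M1, and 97.4, 103 and 83.3 CPM in Prep+/- and 160.4, 146 and 132 CPM in Prep-/- in the M2 groups. The genotypes were apart in both states, with log2 fold changes of 0.88 ± 0.12 (adjusted p = 1.06e-04) and 0.63 ± 0.12 (adjusted p = 0.00101). The M2 call was lost for a fold change under 1.5 without Prep-/- M2 replicate 1 (0.55) or Prep+/- M2 replicate 3 (0.55). In M0, with 78.3, 69.5 and 79.2 CPM in Prep+/- and 87.5, 94.5 and 79.9 CPM in Prep-/-, the difference was 0.21 ± 0.12 (adjusted p = 0.158).

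Idua measured 29.8, 18.998 and 23.03 CPM in Prep+/- M1 and 51.2, 48.9 and 46.8 CPM in Prep-/- M1, without overlap (1.03 ± 0.20, adjusted p = 0.00117). In M0 it had 20.8, 25.9 and 26.1 CPM in Prep+/- and 35.5, 37.9 and 19.7 CPM in Prep-/-, where Prep-/- replicate 3 lay below all Prep+/- libraries, and the difference was 0.35 ± 0.20 (adjusted p = 0.149), or 0.59 (adjusted p = 0.00383, called) without that library. In M2 it had 22.6, 26.3 and 21.4 CPM in Prep+/- and 30.4, 30.6 and 30.3 CPM in Prep-/- (0.38 ± 0.20, adjusted p = 0.178). Idua overlaps Dgkq on the opposite strand, which averaged 18.2 CPM and had a log2 fold change of 0.41 in M1 (adjusted p = 0.0337).

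Sgsh, which removes the N-linked sulfate of heparan sulfate, measured 67.4, 57.8 and 60.2 CPM in Prep+/- M0 and 102, 104 and 84.3 CPM in Prep-/- M0 (0.65 ± 0.20, adjusted p = 0.0126). The call was lost without Prep+/- M0 replicate 2 (0.58, adjusted p = 0.0574). Sgsh overlaps Slc26a11 on the opposite strand, which averaged 42.4 CPM and rose by 1.59 on the log2 scale in Prep-/- M0 (adjusted p = 2.75e-04), and how the counting treated strand was not given in the sources used here. Hyal2, a hyaluronidase held at the cell surface by a lipid anchor, measured 36.8, 40.6 and 41.3 CPM in Prep+/- M1 and 19.2, 22.1 and 26.8 CPM in Prep-/- M1, without overlap (-0.80 ± 0.13, adjusted p = 4.70e-04).

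Gusb had small differences despite its high level. It measured 647, 640.3 and 639 CPM in Prep+/- and 598, 572 and 569.8 CPM in Prep-/- M0 libraries, 638, 634 and 630.4 CPM in Prep+/- and 455, 558 and 544 CPM in Prep-/- in M1, and 893, 949 and 911 CPM in Prep+/- and 784, 783 and 881 CPM in Prep-/- in M2. Every Prep-/- library lay below every Prep+/- library of its state, and the log2 fold changes of -0.15 ± 0.09, -0.29 ± 0.09 and -0.17 ± 0.09 were all under the fold criterion. Gusb overlaps Vkorc1l1 on the opposite strand, which averaged 30.03 CPM and had -0.81 in M0 (adjusted p = 3.73e-04). Hgsnat, the membrane enzyme that acetylates heparan sulfate between 2 of the hydrolase steps, was on the higher side in each state, with 0.42, 0.37 and 0.46 (adjusted p = 0.0100, 0.0260 and 0.0112), also under the fold criterion. Ids (iduronate sulfatase) had differences between -0.06 and 0.18. Galns, which desulfates keratan and chondroitin sulfate, had -0.48 ± 0.13 (adjusted p = 0.00546) in M0, and the call was made without Prep-/- M0 replicate 3 (-0.70, adjusted p = 4.12e-05).

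Sumf1 encodes the enzyme that converts a cysteine of all sulfatases to the formylglycine they need for activity. It was called in no state, with log2 fold changes of -0.39 ± 0.09 (adjusted p = 0.00180), 0.09 ± 0.09 and -0.05 ± 0.09 in M0, M1 and M2. Of the 5 sulfatases in the set, Arsa and Sgsh were each higher in 1 state, Arsb was lower in 2, and Ids and Galns were called in none. Gaa, acid alpha-glucosidase, the lysosomal enzyme of glycogen breakdown, was higher in M2 with 80.3, 87.1 and 79.2 CPM in Prep+/- and 171, 149 and 118 CPM in Prep-/- libraries (0.83 ± 0.12, adjusted p = 1.30e-04). In M0 its difference was 0.51 ± 0.12 (adjusted p = 0.00207), called without Prep+/- M0 replicate 1 (0.62).

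Of the 6 lipases, phospholipases and thioesterases, Plbd1 and Pla2g15 were higher in M0, Lipa was higher in M1, and none was called in M2 or lower in any state. Lipa (chr19:34469712-34522163), lysosomal acid lipase, releases cholesterol and fatty acids from lipoprotein lipids. It measured 297, 242 and 240.4 CPM in Prep+/- M1 and 752, 527 and 540.2 CPM in Prep-/- M1, where every Prep-/- library was above every Prep+/- library (1.22 ± 0.21, adjusted p = 5.64e-04). In M0 the order was the opposite, with 982, 1119 and 1221 CPM in Prep+/- and 868, 881 and 516 CPM in Prep-/- libraries (-0.55 ± 0.21, adjusted p = 0.0379). This fold change was under 1.5, and it passed without Prep-/- M0 replicate 1 (-0.66), Prep-/- M0 replicate 2 (-0.68) or Prep+/- M0 replicate 1 (-0.63). In M2 the groups overlapped, with 1168, 1401 and 1250.4 CPM in Prep+/- and 1205, 1143 and 1776 CPM in Prep-/- (0.11 ± 0.21, adjusted p = 0.739), and Prep-/- replicate 3, which stood apart, was the highest.

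Pla2g15, the lysosomal phospholipase A2, was higher in M0 with 189.7, 152 and 130.3 CPM in Prep+/- and 326, 214 and 368 CPM in Prep-/- libraries (0.95 ± 0.20, adjusted p = 0.00118). Plbd1 and Plbd2 are a pair of phospholipase B-like genes of very different level. Plbd1 was near the detection limit in Prep+/- M0, with 2, 18 and 2 counts against 43, 26 and 15 counts in Prep-/- M0, or 0.0912, 0.710 and 0.0802 CPM against 2.04, 1.09 and 0.692 CPM, and the groups overlapped. Its log2 fold change of 2.06 ± 0.64 (adjusted p = 0.0148) lost the call without Prep-/- M0 replicate 1 (1.55, adjusted p = 0.0842), Prep+/- M0 replicate 1 (1.67, adjusted p = 0.0579) or Prep+/- M0 replicate 3 (1.59, adjusted p = 0.0716), and was 3.78 without Prep+/- M0 replicate 2. Plbd2 measured 100.3 ± 7.46 and 109.8 ± 14.7 CPM in M0 (0.13 ± 0.11, adjusted p = 0.323), and its M2 difference of 0.52 ± 0.11 (adjusted p = 0.00176) passed the fold criterion without Prep-/- M2 replicate 3 (0.59). The thioesterases Ppt1 and Ppt2, which take fatty acids off proteins and thioesters, had log2 fold changes of 0.22, 0.19 and 0.12 and of 0.24, -0.28 and -0.06 in M0, M1 and M2, and neither was called. Ppt1 overlaps Cap1 on the opposite strand, which averaged 618 CPM, and shares 768 bases at 91.4% identity with an annotated transcript elsewhere, so that its counts are uncertain. Ppt2 overlaps Fkbpl on the opposite strand, which averaged 17.7 CPM and had 0.60 in M0 (adjusted p = 0.00184). Matches of 300 bases or more at 90% identity or more to a transcript elsewhere were found for 4 further genes, which makes their counts uncertain too: 374 bases at 98.1% for Sumf1, 492 at 91.3% for Fuca1, 433 at 93.1% for Hgsnat and 395 at 90.1% for Galc.

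In the last group, Acp2 was higher in M0 and Acp5 was lower in M0 and M1, while Tpp1 and Dnase2a were called in no state. Acp2, the widely expressed lysosomal acid phosphatase, measured 149, 151 and 141 CPM in Prep+/- M0 and 274, 232 and 185 CPM in Prep-/- M0 (0.65 ± 0.12, adjusted p = 2.75e-04), and lost the call for a fold change under 1.5 without Prep-/- M0 replicate 1 (0.51). Acp2 overlaps Nr1h3 and Ddb2 on the opposite strand, with M0 log2 fold changes of -0.51 and 0.41 that did not pass (adjusted p = 0.0732 and 0.227). Acp5 (chr9:22038023-22049355), the tartrate-resistant acid phosphatase of osteoclasts and activated macrophages, measured 5.24, 6.67 and 6.45 CPM in Prep+/- and 4.65, 3.39 and 2.72 CPM in Prep-/- M0 libraries (-0.77 ± 0.18, adjusted p = 0.00196). In M1 it measured 66.7, 77.7 and 81.6 CPM in Prep+/- and 40.95, 44.2 and 48.3 CPM in Prep-/- (-0.76 ± 0.15, adjusted p = 0.00162). The Prep-/- libraries were the lower ones in both states. In M2 they were the higher ones, with 11.2, 12.7 and 10.9 CPM in Prep+/- and 17.2, 13.99 and 19.1 CPM in Prep-/- (0.53 ± 0.16, adjusted p = 0.0233), a fold change under 1.5 that passed without Prep-/- M2 replicate 2 (0.65).

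Because Acp5 also marks osteoclasts, 10 other osteoclast genes were summed. The sum ranged from 119 to 157 CPM in Prep+/- M0 and from 128 to 185 CPM in Prep-/- M0, from 158 to 166 CPM in Prep+/- M1 and 126 to 151 CPM in Prep-/- M1, and from 550.0 to 661 CPM in Prep+/- M2 and 965 to 1610 CPM in Prep-/- M2. Atp6v0d2, a proton pump subunit, made up most of the M2 sums, at 403 ± 35.1 and 879 ± 154 CPM. The M2 means of Itgb3, Ctsk, Nfatc1 (36.4 and 37.5 CPM), Dcstamp, Ocstamp, Mmp9 and Oscar were also higher in Prep-/- BMDMs. That of Tnfrsf11a was lower (29.5 and 27.2 CPM). For Ocstamp the M2 medians were 7.97 and 7.09 CPM, and the highest Prep-/- library was at 124 CPM. In M1, where the Prep-/- sums were the lower ones, as was Acp5, Mmp9, a secreted gelatinase, was at 43.99 ± 8.39 CPM in Prep+/- and 8.25 ± 2.58 CPM in Prep-/- BMDMs. The M1 means of Tnfrsf11a (76.1 and 81.2 CPM), Ctsk (9.34 and 12.8 CPM) and Atp6v0d2 (1.84 and 4.76 CPM) were instead higher in Prep-/- BMDMs. So were those of Nfatc1, Itgb3 and Oscar, while those of Dcstamp, Ocstamp and Calcr were lower, as was that of Mmp9. Calcr, the calcitonin receptor that defines osteoclasts, was at 0 in both M0 and both M2 groups, and Oscar was at most 0.104 CPM in any library. The fusion gene Dcstamp reached 183 CPM in Prep-/- M2 replicate 3 and at most 30.7 CPM in any other library. The part of these genes in the Acp5 values was not tested. Tpp1, tripeptidyl peptidase 1, had differences of 0.20, 0.42 and 0.31 in M0, M1 and M2, and Dnase2a, acid DNase, of 0.14, -0.43 and 0.37. Dnase2a overlaps Mast1 and Plbd2 overlaps Sds on the opposite strand, which averaged 0.203 and 0.00256 CPM.

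**Figure D3:**
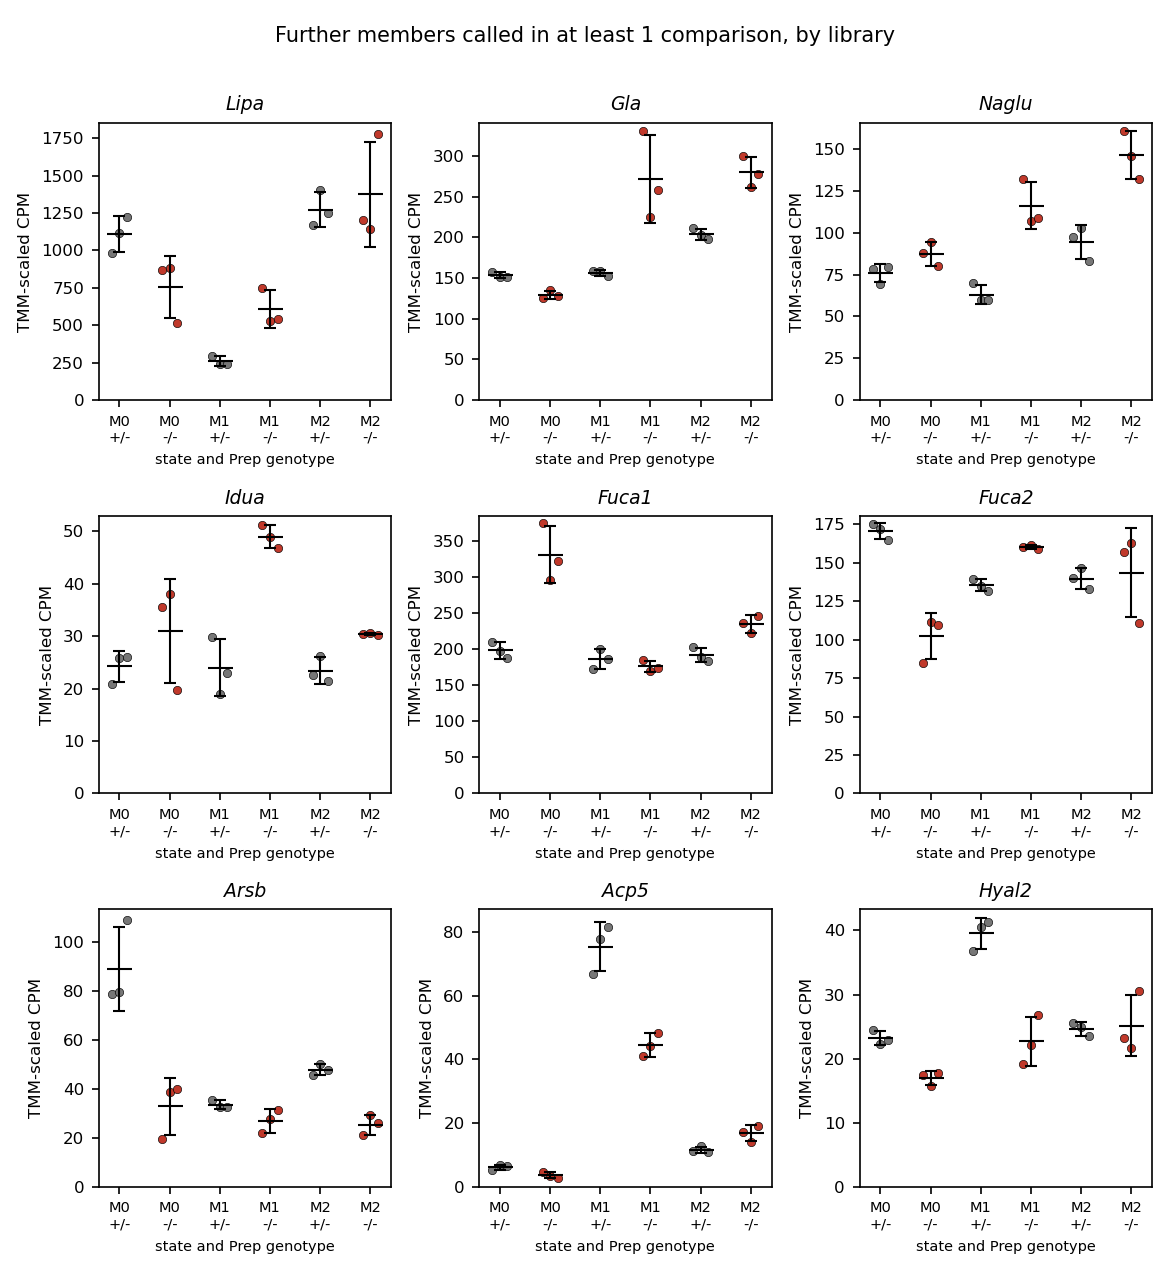
TMM-scaled CPM of Lipa, Gla, Naglu, Idua, Fuca1, Fuca2, Arsb, Acp5 and Hyal2 in each library (points, grey for Prep+/- and red for Prep-/-), with the mean and SD (bars, n = 3); every axis starts at 0. For Lipa the red points lie below the grey ones in M0 and above them in M1, for Acp5 both M1 groups stand far above the others, and for Arsb the Prep+/- M0 points are the highest.

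Whether the knockout effect differed between states was tested directly, as the difference of the knockout effects in the same fit, called at an adjusted p under 0.05 with no fold criterion. Between M1 and M0 it differed for 13 of the 36 genes: 6 with a higher knockout effect in M1, against 13.7% of all genes tested, and 7 with a lower one, against 10.9%. Between M2 and M0 it differed for 4, all with a higher effect in M2, against 5.16% of all genes tested, and for 0 with a lower effect, against 4.48%. At an unadjusted p under 0.05 in the same edgeR fit, 4 of the 36 had a lower effect in M2 than in M0, and DESeq2 called 7 genes in either direction at its adjusted p. The shares of all genes under these rules are not given. The median difference of the 36 genes was -0.22 for M1 minus M0 and -0.02 for M2 minus M0, and that of all genes was 0.04 and -0.01. Both differences use the M0 libraries.

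The higher knockout effects in M1 than in M0 were those of Lipa (1.77 ± 0.30, adjusted p = 6.28e-04), Arsb (1.12 ± 0.31, adjusted p = 0.0143), Gla (1.04 ± 0.16, adjusted p = 3.11e-04), Fuca2 (0.98 ± 0.18, adjusted p = 0.00125), Naglu (0.67 ± 0.17, adjusted p = 0.00862) and Sumf1 (0.48 ± 0.12, adjusted p = 0.0108). Lipa, Gla and Fuca2 had knockout effects of opposite sign in M0 and M1, although only one side of each passed the call: Lipa was higher in Prep-/- in M1, Gla was higher in M1, and Fuca2 was lower in M0. The lower knockout effects in M1 were those of Plbd1 (-2.37 ± 0.83, adjusted p = 0.0471), Hexa (-0.91 ± 0.19, adjusted p = 0.00282), Fuca1 (-0.82 ± 0.14, adjusted p = 7.31e-04), Man2b1 (-0.78 ± 0.25, adjusted p = 0.0300), Acp2 (-0.62 ± 0.16, adjusted p = 0.0115), Gm2a (-0.57 ± 0.14, adjusted p = 0.00710) and Ppt2 (-0.52 ± 0.13, adjusted p = 0.00873). Of these 7, all but Ppt2 were higher in Prep-/- in M0 and none was called in M1. The sign of the estimate also differed for Sumf1 (-0.39 in M0 and 0.09 in M1), Fuca1 (0.74 and -0.08), Plbd1 (2.06 and -0.31 ± 0.52) and Ppt2 (0.24 and -0.28). In M1 the knockout effects of Sumf1, Fuca1 and Plbd1 had adjusted p of 0.422, 0.571 and 0.664, so a change of sign was not shown for these. Man2b1 lost the call without any of 6 libraries (adjusted p of 0.0503 to 0.0803) and Plbd1 without any of 8 (adjusted p of 0.0517 to 0.131). Asah1 and Galns gained it without Prep-/- M0 replicate 3 (-0.43, adjusted p = 0.0332, and 0.67, adjusted p = 0.00178), and Manba without Prep-/- M0 replicate 2 (0.46, adjusted p = 0.0430).

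The higher effects in M2 than in M0 were those of Acp5 (1.31 ± 0.24, adjusted p = 0.00415), Fuca2 (0.78 ± 0.18, adjusted p = 0.0145), Gla (0.70 ± 0.16, adjusted p = 0.0124) and Galns (0.70 ± 0.18, adjusted p = 0.0231). All 4 had a Prep-/- level below Prep+/- in M0. Galns measured 63.9, 63.1 and 64.6 CPM in Prep+/- and 37.3, 41.9 and 58.2 CPM in Prep-/- M0 libraries, and 70.5, 74.99 and 62.4 CPM in Prep+/- and 84.1, 77.9 and 80.2 CPM in Prep-/- in M2, so that the genotypes were apart in both states and in opposite order. The knockout effect of Galns within M2 was not called (0.22 ± 0.13, adjusted p = 0.224). The call of the difference between M2 and M0 for Galns was lost without any of 7 libraries (adjusted p of 0.0509 to 0.0692). Lower effects in M2 were called for Fuca1 without Prep-/- M0 replicate 2 (-0.52, adjusted p = 0.0275) or Prep+/- M0 replicate 1 (-0.50, adjusted p = 0.0466) and for Acp2 without Prep-/- M0 replicate 3 (-0.44, adjusted p = 0.0402), and a higher one for Sumf1 without the latter library (0.45, adjusted p = 0.0134). Psap was called in neither test, with -0.34 ± 0.22 for M1 minus M0 and -0.12 ± 0.22 for M2 minus M0 (adjusted p = 0.265 and 0.781).

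The response to LPS was compared with M0 within each genotype. In Prep+/- BMDMs 11 of the 36 genes were higher in M1, against 16.7% of all genes tested, and 6 were lower, against 20.9%. In Prep-/- BMDMs 11 were higher, against 20.9%, and 7 lower, against 21.0%. These 2 comparisons share no libraries. Galns, Neu1, Ppt1, Acp2, Acp5, Hgsnat and Plbd2 were higher in both genotypes, Galc, Man2b1, Sgsh and Pla2g15 were lower in both, and 0 genes were called in opposite directions.

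Acp5 had the largest rise in M1, from the M0 levels above to 66.7, 77.7 and 81.6 CPM in Prep+/- and 40.95, 44.2 and 48.3 CPM in Prep-/- libraries (3.62 ± 0.17, adjusted p = 1.51e-10 and 3.63 ± 0.18, adjusted p = 1.84e-10). Acp2 followed among the genes called in both genotypes, rising from 147 ± 5.21 to 605 ± 17.1 CPM in Prep+/- (2.04 ± 0.12, adjusted p = 1.35e-09) and from 230.3 ± 44.4 to 615 ± 23.1 CPM in Prep-/- BMDMs (1.42 ± 0.12, adjusted p = 5.24e-08). Sgsh fell to 23.1, 19.9 and 20.4 CPM in Prep+/- M1 and 22.9, 30.2 and 25.1 CPM in Prep-/- M1 (-1.55 ± 0.21, adjusted p = 8.51e-06 and -1.89 ± 0.21, adjusted p = 9.69e-07), and Galc also fell in both genotypes (-1.20 ± 0.12, adjusted p = 4.33e-07 and -1.51 ± 0.12, adjusted p = 3.68e-08). All M1 libraries of both genes lay below all M0 libraries of the same genotype.

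Lipa fell in Prep+/- BMDMs (-2.09 ± 0.22, adjusted p = 5.52e-07), whereas in Prep-/- BMDMs its log2 fold change was -0.32 ± 0.21 (adjusted p = 0.206), and the difference between these responses is the interaction given above. Arsb, likewise, fell in Prep+/- BMDMs (-1.41 ± 0.22, adjusted p = 4.44e-05) and had -0.28 ± 0.22 (adjusted p = 0.280) in Prep-/- BMDMs. Plbd1 rose in Prep+/- BMDMs to 2.26, 3.88 and 1.76 CPM (3.11 ± 0.63, adjusted p = 5.24e-04), from the low counts noted above. Its value was 4.86 without Prep+/- M0 replicate 2, and in Prep-/- BMDMs it had 0.74 ± 0.54 (adjusted p = 0.253). Ppt2, Hyal2 and Aga were higher in M1 in Prep+/- BMDMs (0.87, 0.77 and 0.77) and under the fold criterion in Prep-/- BMDMs (0.34, 0.42 and 0.47). The interaction was called for Ppt2 alone of these.

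In Prep-/- BMDMs Gla (1.07 ± 0.11, adjusted p = 7.61e-07), Sumf1 (0.73), Idua (0.66) and Fuca2 (0.65) were higher in M1, and Hexa (-1.16 ± 0.13, adjusted p = 2.03e-06), Dnase2a (-0.97) and Fuca1 (-0.91) were lower. In Prep+/- BMDMs these 7 genes had log2 fold changes of 0.03, 0.25, -0.02, -0.33, -0.25, -0.40 and -0.09 in the same order. The interaction was called for Gla, Sumf1, Fuca2, Hexa and Fuca1, and not for Idua (adjusted p = 0.0866) or Dnase2a (adjusted p = 0.0802). Without Prep-/- M0 replicate 2 both were called (adjusted p = 0.0294 and 0.0217), as was Idua without Prep+/- M1 replicate 1 (0.0335) and Dnase2a without Prep+/- M0 replicate 1 (0.0452). In Prep-/- BMDMs the calls of Fuca2, Idua, Neu1 and Ppt1 depended on single libraries: without Prep-/- M0 replicate 1 Fuca2, Neu1 and Ppt1 had 0.53, 0.57 and 0.56, and without Prep-/- M0 replicate 3 Idua and Ppt1 had 0.38 and 0.48, all under the fold criterion. Leaving out Prep-/- M0 replicate 2 or Prep-/- M1 replicate 3 gave 0.53 and 0.56 for Neu1, leaving out Prep-/- M1 replicate 1 gave 0.58 for Idua, and leaving out Prep-/- M1 replicate 1, 2 or 3 gave 0.55, 0.54 and 0.56 for Ppt1. With the replicate number as a block, which the data allowed for this comparison, Ppt1 had 0.56 and also fell short. In Prep+/- BMDMs Man2b1 (-0.60) lost the call without Prep+/- M0 replicate 3 (-0.56) or Prep+/- M1 replicate 2 (-0.56), and Ppt1 (0.62) without Prep+/- M0 replicate 1 (0.56), Prep+/- M1 replicate 1 (0.57) or Prep+/- M1 replicate 3 (0.57). Manba (-0.58) gained it in Prep+/- BMDMs without any of 5 libraries (-0.63 to -0.59).

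**Figure D4:**
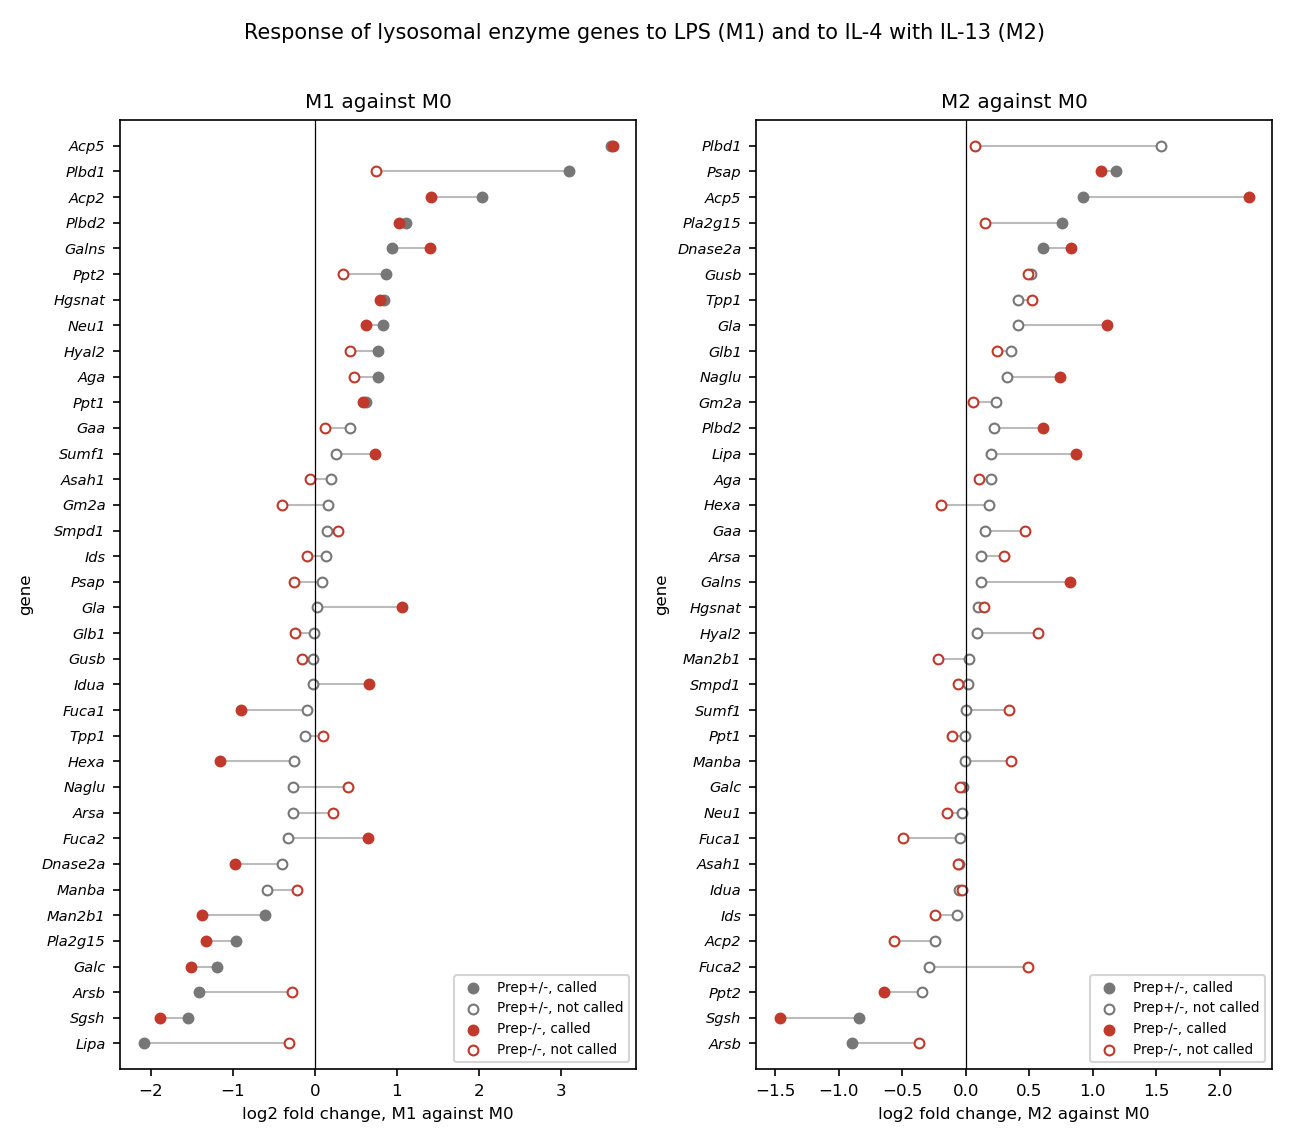
Log2 fold change of each of the 36 genes in M1 against M0 (left) and in M2 against M0 (right), grey for Prep+/- and red for Prep-/- BMDMs, with a grey line joining the genotypes; filled points met both call criteria. In M1 the points of Acp5 coincide while those of Lipa, Arsb, Gla and Plbd1 are far apart, and in M2 the widest gaps are those of Plbd1, with no filled point, and Acp5.

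The response to IL-4 and IL-13 was compared with M0 in the same way, and uses the same M0 libraries as the response to LPS. In Prep+/- BMDMs 4 were higher in M2 than in M0, against 6.09% of all genes tested, and 2 were lower, against 6.77%. In Prep-/- BMDMs 8 were higher, against 14.7%, and 2 lower, against 15.5%, or 10 and 2 without Prep-/- M2 replicate 3, the library that stood apart. The shares of all genes called without it are not given. The median log2 fold change in Prep-/- BMDMs was 0.14, and 0.28 without that library, against 0.11 in Prep+/- BMDMs and -0.02 and -0.01 for all genes. Psap, Acp5 and Dnase2a were higher and Sgsh was lower in both genotypes.

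Psap rose in M2 in both genotypes (1.18 ± 0.16, adjusted p = 4.14e-05 in Prep+/- and 1.07 ± 0.16, adjusted p = 4.49e-05 in Prep-/-), and no M2 library overlapped the M0 libraries of its genotype. Acp5 rose to 11.2, 12.7 and 10.9 CPM in Prep+/- M2 (0.92 ± 0.17, adjusted p = 8.18e-04) and to 17.2, 13.99 and 19.1 CPM in Prep-/- M2 (2.23 ± 0.18, adjusted p = 4.98e-08), and this response differed between the genotypes by the interaction above. Gla rose in Prep-/- BMDMs (1.11 ± 0.11, adjusted p = 9.19e-07) and had 0.41 ± 0.11 (adjusted p = 0.0166) in Prep+/- BMDMs. Sgsh fell to 36.6, 40.3 and 26.7 CPM in Prep+/- M2 (-0.84 ± 0.20, adjusted p = 0.00674) and to 40.2, 42.7 and 22.2 CPM in Prep-/- M2 (-1.47 ± 0.20, adjusted p = 2.31e-05). Arsb fell in Prep+/- BMDMs from 78.7, 79.7 and 109 to 45.7, 50.1 and 47.6 CPM (-0.90 ± 0.21, adjusted p = 0.00696) and had -0.37 ± 0.22 (adjusted p = 0.183) in Prep-/- BMDMs. The interaction of Arsb between M2 and M0 was not called (0.53 ± 0.31, adjusted p = 0.291).

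Pla2g15 (0.76) and Dnase2a (0.60) were higher in Prep+/- M2. Both calls were lost at an adjusted p of 0.0561 to 0.0798 without any of 4 libraries, which were Prep+/- M0 replicates 2 and 3 and Prep+/- M2 replicate 1 for both genes, Prep+/- M2 replicate 2 for Pla2g15 and Prep+/- M2 replicate 3 for Dnase2a. The count of higher genes was thereby 2 in place of 4 without Prep+/- M0 replicate 3 or Prep+/- M2 replicate 1. In Prep-/- M2, Lipa (0.86), Dnase2a (0.83), Galns (0.82), Naglu (0.74) and Plbd2 (0.61) were higher, and Ppt2 (-0.64) was lower. Plbd2 lost the call without Prep-/- M0 replicate 2 (0.58), Prep-/- M0 replicate 3 (0.52) or Prep-/- M2 replicate 1 (0.53), and Ppt2 without Prep-/- M0 replicate 1 (-0.56). Without Prep-/- M2 replicate 3, Fuca2 (0.63) and Gaa (0.59) were also called.

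Another 24 genes for lysosomal enzymes and for their delivery were counted for context, of which 23 passed the filter. In Prep-/- against Prep+/- BMDMs, M0 had 9 higher and 6 lower, M1 had 4 higher and 1 lower and M2 had 6 higher and 1 lower of these genes, against 15.4% and 17.2%, 12.3% and 10.2%, and 6.37% and 9.82% of all genes tested, with median log2 fold changes of 0.03, 0.11 and 0.20. Hpse, the heparanase that cuts heparan sulfate chains inside, was higher in all 3 states (1.67 ± 0.26, 1.77 ± 0.26 and 2.45 ± 0.26). So was Scpep1 (0.64 ± 0.12, 0.84 ± 0.12 and 0.96 ± 0.12), while Smpdl3b was lower in all 3 states (-1.37 ± 0.18, -0.87 ± 0.17 and -1.90 ± 0.20). Gnptab, which makes the mannose 6-phosphate tag that routes enzymes to the lysosome, and Igf2r, a receptor of that tag, were lower in M0 (-1.42 ± 0.22 and -0.98 ± 0.18) and were called in neither M1 nor M2. Of the other delivery genes in M0, Gnptg (-0.05, adjusted p = 0.713), M6pr (-0.24, adjusted p = 0.0737) and Sort1 (0.27, adjusted p = 0.327) were not called. Nagpa (-0.39, adjusted p = 0.00830) missed the call by the fold criterion alone, and Scarb2 was higher (0.86 ± 0.12).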

How the data were processed

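Total RNA of 18 BMDM cultures was made into stranded, poly(A)-selected libraries. Per the labels and the study's methods, the authors trimmed reads with Trimmomatic (0.36) and aligned them to GRCm39 with HISAT2 (2.2.1.0). The methods name StringTie for the assembly into transcripts that gave the count tables. A table of raw counts per gene symbol was deposited. The annotation release and the treatment of strand and of multiply mapped reads in counting were not given in the sources used here, so overlapping protein-coding genes are named. Those not named above were Slc26a1 for Idua, Card14 for Sgsh and Prrt1 for Ppt2. They averaged 0.00513, 0.0631 and 0.473 CPM. Counts were filtered with filterByExpr, scaled by TMM and fitted over all 18 libraries, with 1 mean per group, by edgeR's quasi-likelihood test (edgeR 4.0.16, R 4.3.3), with Benjamini-Hochberg adjustment over 12021 genes. A call needed an adjusted p under 0.05 and, except for differences of knockout effects, a fold change over 1.5. Values are log2 fold change ± SE. The common biological coefficient of variation was 0.167. The genes, lists and tests were chosen with earlier results of these data known. Library values are given for genes with the 4 largest called knockout changes in each state, the 3 largest in each response, the 5 smallest adjusted p in each interaction, the 3 highest levels per length and paralogue pairs; values of further called genes, such as Man2b1, Gaa, Arsa, Hyal2, Pla2g15 and Acp2, were added after they were seen.

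Replicate numbers come from the sample titles. Libraries with the same number deviated together in 2 comparisons, with correlations of 0.249, 0.255 and 0.462 for the knockout effect in M2 and of 0.201, 0.169 and 0.259 for M1 against M0 in Prep-/- BMDMs. The study calls the replicates biological, and nothing says whether numbers mark shared litters or days. Alternatives were DESeq2 (1.42.0), limma (3.58.1), other scalings and filters, a test against the fold threshold, other sample sets, replicate blocks and each library left out. The replicate block in only the libraries compared was chosen after seeing the data. Gene positions come from GENCODE on GRCm39, possibly another release than the authors had, and near copies were searched with blastn (2.17.0). The code was tested on simulated data.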

Additional observations from a re-analysis of the deposited data

Results flagged for a closer look

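The knockout effect differed between M1 and M0 for 13 genes, by the test of the difference itself within the edgeR fit. The difference, M1 minus M0 on the log2 scale, was 1.77 for Lipa (adjusted p = 6.28e-04), 1.12 for Arsb (0.0143), 1.04 for Gla (3.11e-04), 0.98 for Fuca2 (0.00125), 0.67 for Naglu (0.00862) and 0.48 for Sumf1 (0.0108). It was -2.37 for Plbd1 (0.0471), -0.91 for Hexa (0.00282), -0.82 for Fuca1 (7.31e-04), -0.78 for Man2b1 (0.0300), -0.62 for Acp2 (0.0115), -0.57 for Gm2a (0.00710) and -0.52 for Ppt2 (0.00873). Between M2 and M0 it differed for 4 genes, with 1.31 for Acp5 (0.00415), 0.78 for Fuca2 (0.0145), 0.70 for Gla (0.0124) and 0.70 for Galns (0.0231).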

How the results depend on the processing

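The fold changes taken by the naming rule kept their sign under every alternative run. The signs of the other printed fold changes, such as that of Lipa in M2, were not tabulated. The median difference of knockout effects between M2 and M0 ran from -0.04 to 0.05 with 1 library left out, and the order of the Prep+/- M0 and M1 sums turned with the scaling. Counts of called genes moved by more than 1.5 times as follows. A test against the 1.5-fold threshold itself called 5 higher and 1 lower in Prep-/- M0, 2 and 0 in M1, 1 and 0 in M2, 5 higher in M1 against M0 in Prep-/-, 3 higher and 1 lower in M2 against M0 in Prep-/-, and 1 higher and 0 lower in M2 against M0 in Prep+/-. The shares of all genes called by that test are not given. With no minimum fold change, 7 were lower in Prep-/- M0, against 24.2% of all genes tested. In Prep-/- M1, 12 were higher and 4 lower, against 19.7% and 16.6%, and in Prep-/- M2, 15 were higher, against 11.6%. For M2 against M0, 16 were higher and 4 lower in Prep-/-, against 22.1% and 21.7%, and 8 were higher in Prep+/-, against 9.35%. Differences between the knockout effects in M2 and M0 numbered 7 with DESeq2 and 2 with only the libraries compared. With 1 library left out at a time, Prep-/- M0 had between 8 and 12 higher and between 3 and 4 lower genes, M1 had 6 to 7 and 2, M2 had 7 to 9 and 1; 10 to 11 higher and 5 to 7 lower in M1 against M0 in Prep+/-, 8 to 10 and 7 in Prep-/-; 2 to 4 higher and 2 lower in M2 against M0 in Prep+/-, 8 to 10 and 2 to 3 in Prep-/-; and 11 to 16 and 3 to 6 differences of knockout effects for M1 and M2. The shares of all genes called with other tools, library sets or blocks are not given. The level per length of Hexa and Gusb was 333 and 205 CPM/kb by the longest transcript.

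When only the libraries compared were fitted and blocked by replicate number, Prep-/- M0 had 9 higher and 2 lower genes (Asah1, Acp5 and Plbd1 lost, adjusted p = 0.0922, 0.0768 and 0.0663), M2 against M0 had 7 higher in Prep-/- (Lipa lost, 0.110) and 5 in Prep+/- (Plbd1 gained), and differences of knockout effects numbered 12 in M1 (Sumf1 lost, 0.0513) and 2 in M2 (Galns and Fuca2 lost, 0.101 and 0.0741). In the comparisons between 2 groups named here same-numbered libraries did not all deviate together and share only a number; for the differences of knockout effects this was not computed. Where they did deviate together, the block changed no call but that of Ppt1, and a block over all libraries left every count as it was.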
